A study of Schizosaccharomyces pombe with 6 samples.

Results

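The *mas5* deletion strain of the fission yeast *Schizosaccharomyces pombe* was compared with the wild type by RNA sequencing. Both strains were grown unstressed in rich medium at 24°C (YES by the sample labels, YE in the study's methods), and each was represented by 1 library. Genes were kept when their *mas5Δ* and wild type values averaged 10 FPKM or more (fragments mapped to a transcript, scaled by its length and by the depth of the library) with both above 0. This left 5186 of the 7008 listed genes, of which 4605 code for proteins and 569 carry identifiers of non-coding RNAs. Of the others, 1279 had a mean under 10 FPKM, 43 were listed at 0 in *mas5Δ* only, 113 were listed at 0 in the wild type only and 387 were listed at 0 in both libraries. The series has 6 libraries in all. Besides the *mas5Δ* and wild type libraries, it holds *ssa2Δ* cells and wild type cells shifted to 36°C for 15 min, both in rich medium, and *nmt1:hsf1* cells overexpressing Hsf1 and wild type cells in minimal medium without thiamine at 24°C. With 1 library per strain there is no spread between replicates, so every ratio below describes these libraries and carries no test. Read depth was not recoverable from the FPKM values, so no counting error can be given. According to the study's strain list, the deletion carries *ura4+* in place of *mas5*.

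Mas5 is a nucleocytoplasmic Hsp40, a J-domain protein that delivers unfolded substrates to Hsp70 and stimulates its ATPase. Hsp70 in fission yeast is encoded by *ssa1* and *ssa2* in the cytosol. Hsf1 is the heat shock transcription factor; it binds heat shock elements, which are alternating GAA units, and drives genes of chaperones, and Hsp70 with its Hsp40 partners is known to hold it back in unstressed yeast. A second route to stress genes in this species runs through the MAP kinase Sty1 and the factor Atf1, which binds the CRE sequence.

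The deleted gene itself was listed at 36.3 FPKM in *mas5Δ* cells and 470.3 FPKM in the wild type, a log2 ratio of -3.69. The locus in the table holds 3 other genes, *alg12*, SPNCRNA.1409 and SPNCRNA.337, and what the remaining *mas5Δ* value derives from was not tested. The marker gene *ura4* was listed at 115.8 FPKM in *mas5Δ* cells and at 0 in the wild type. Any change that follows the marker cannot be told apart from a change that follows the deletion. The transcript of Hsf1 had 80.5 FPKM in *mas5Δ* cells and 69.9 FPKM in the wild type (log2 ratio 0.20), and *act1*, which encodes actin, had 1979 FPKM and 1986 FPKM in the same order.

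A total of 185 genes were more than 2-fold higher in *mas5Δ* cells, which is 3.57% of the genes compared, and 212 genes were more than 2-fold lower, which is 4.09%. The remaining 4789 genes (92.3%) lay within 2-fold. The higher genes reached further, since 52 were over 4-fold higher and 20 over 8-fold higher, against 20 and 7 lower genes past the same folds. The median log2 ratio of all 5186 genes was 0.015, their SD was 0.65, and the 5th and 95th percentiles were -0.95 and 0.83. The higher genes held 7.38% of all FPKM in *mas5Δ* cells and 1.82% in the wild type. Just inside the 10 FPKM limit lay SPNCRNA.1241 (10.2 FPKM in *mas5Δ* and 9.76 FPKM in the wild type) and SPCC1620.13 (13.1 and 6.94 FPKM in the same order). Just outside lay SPNCRNA.1428, with 9.20 FPKM in *mas5Δ* and 10.8 FPKM in the wild type, and *duo1*, with 11.3 FPKM in *mas5Δ* and 8.63 FPKM in the wild type.

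**Figure D1:**
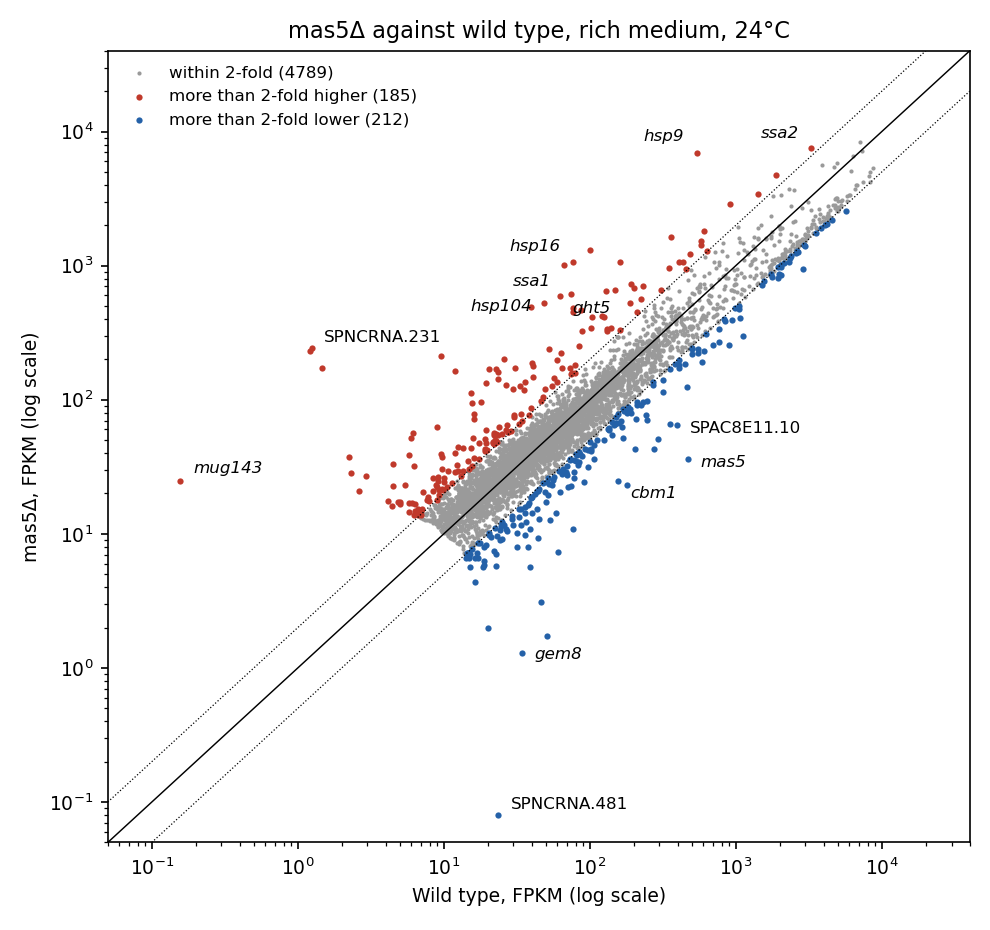
FPKM of 5186 genes in the *mas5Δ* library (vertical axis, log scale) against the wild type library (horizontal axis, log scale); the solid line marks equal values and the dotted lines mark 2-fold. The 185 higher genes (red) reach from low levels to *hsp9* and *ssa2*, and the 212 lower genes (blue) include a dense group just past 2-fold at the highest levels.

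Chaperone and other stress genes were among the protein-coding genes with the largest ratios. The highest was *mug143*, a gene first named for its expression in meiosis, with 24.6 FPKM in *mas5Δ* cells and 0.157 FPKM in the wild type (log2 ratio 7.29, or 4.47 with 1 FPKM added to both values). Next came *wwm3*, with 210 FPKM in *mas5Δ* and 9.58 FPKM in the wild type (4.46), and *cta3*, which encodes a calcium-transporting P-type ATPase, with 37.6 and 2.23 FPKM in the same order (4.08). The inducible Hsp70 gene *ssa1* had 1010 FPKM in *mas5Δ* cells and 66.2 FPKM in the wild type, a log2 ratio of 3.93. The small heat shock protein gene *hsp16* had 1069 FPKM in *mas5Δ* cells and 76.6 FPKM in the wild type (3.80). The SBDS family gene *rtc3* had 1308 FPKM in *mas5Δ* cells and 101 FPKM in the wild type (3.70). The stress gene *hsp9*, with 6906 FPKM in *mas5Δ* cells and 540.7 FPKM in the wild type (3.67), became one of the most abundant transcripts of the mutant. The disaggregase gene *hsp104*, whose product pulls proteins out of aggregates, had 525.9 FPKM in *mas5Δ* cells and 48.7 FPKM in the wild type (3.43). The list of 12 was completed by *rds1* (489 FPKM in *mas5Δ* and 39.3 FPKM in the wild type), the hexose transporter gene *ght5* (589 and 62.8 FPKM), *mug108* (27.1 and 2.94 FPKM) and *pyp2* (56.7 and 6.17 FPKM), which encodes a tyrosine phosphatase that turns Sty1 off.

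The lower end included genes of transport and metabolism. Apart from *mas5*, the lowest protein-coding ratios belonged to SPBPB10D8.01, annotated as a cysteine transporter, with 1.73 FPKM in *mas5Δ* cells and 50.6 FPKM in the wild type (-4.87), and to *gem8*, with 1.29 FPKM in *mas5Δ* and 34.3 FPKM in the wild type (-4.73). The low *mas5Δ* values make these ratios sensitive to a pseudocount, and with 1 FPKM added they were -4.24 and -3.94. The gene *cbm1*, annotated with a cellulose-binding domain, had 24.7 FPKM in *mas5Δ* cells and 155 FPKM in the wild type (-2.65). SPAC8E11.10, annotated as a sorbose reductase, had 65.2 FPKM in *mas5Δ* cells and 398 FPKM in the wild type (-2.61). SPAC1039.02 followed at -2.53 and SPAC3G6.05, of the Mpv17/PMP22 family, at -2.24. The ferric reductase gene *frp1*, needed for iron uptake, had 14.3 FPKM in *mas5Δ* cells and 58.3 FPKM in the wild type (-2.03). Other genes of the lower end were *fta5*, for a glycoprotein (-1.98), *the4*, for a coenzyme A thioesterase (-1.92) and *apt1*, which encodes the adenine phosphoribosyltransferase of purine salvage (257 FPKM in *mas5Δ*, 902 FPKM in the wild type, -1.81).

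**Figure D2:**
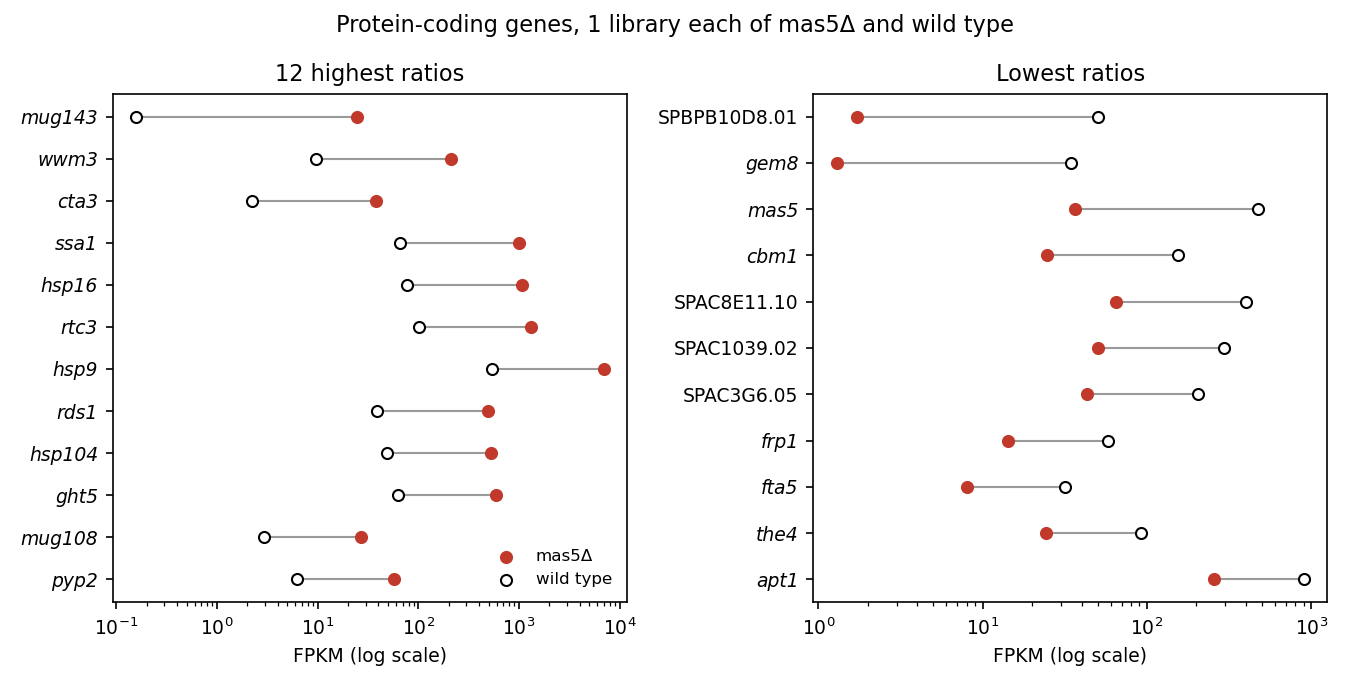
FPKM (log scale) in the *mas5Δ* library (filled) and the wild type library (open) for the 12 protein-coding genes with the highest log2 ratios (left) and for genes with the lowest (right). Genes on the left run from a log2 ratio of 7.29 (*mug143*) to 3.20 (*pyp2*), and those on the right from -4.87 (SPBPB10D8.01) to -1.81 (*apt1*).

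Several classes of cytosolic chaperones held genes that rose. The largest ratios among them were those of *ssa1*, *hsp16*, *hsp9* and *hsp104*, whose log2 ratios in heat were 6.53, 8.19, 5.12 and 6.07. Other heat-induced genes stayed within 2-fold in *mas5Δ* cells, namely *hsp20* (2.55 in heat), *cdc37* (2.77), *aha1* (2.90) and *wis2* (2.92). The heat ratios share the unstressed wild type library. Of 4 genes for small heat shock proteins and the disaggregase, 3 were more than 2-fold higher, and the exception *hsp20* had 86.6 FPKM in *mas5Δ* cells and 62.4 FPKM in the wild type (0.47). The median of this list was 3.55, beside 0.015 for all genes. Of 7 genes for cytosolic Hsp70 and its exchange factors, 3 rose and none fell, with a median of 0.87. These were *ssa1*, *fes1* (681 FPKM in *mas5Δ*, 199 FPKM in the wild type, 1.77), which encodes a nucleotide exchange factor, and *ssa2* (7496 FPKM in *mas5Δ*, 3283 FPKM in the wild type, 1.19), the partner of Mas5. The Hsp110 gene *pss1* had 0.87, while *sks2*, which encodes the Hsp70 of the ribosome, was on the other side of 0 with 1514 FPKM in *mas5Δ* and 2365 FPKM in the wild type (-0.64). The difference in FPKM between the libraries was larger for *ssa2* than for *ssa1*, although its ratio was smaller.

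Hsp90 and its partners followed the same direction. Of 8 genes, 3 rose, and their median was 0.88. The co-chaperone gene *wos2*, the p23 of fission yeast, had 2874 FPKM in *mas5Δ* cells and 917 FPKM in the wild type (1.65). Hsp90 itself, also named *swo1*, had 4770 FPKM in *mas5Δ* cells and 1876 FPKM in the wild type (1.35), and *sti1*, which bridges Hsp70 and Hsp90, had 658 FPKM in *mas5Δ* and 307 FPKM in the wild type (1.10). The cyclophilin gene *wis2* (0.92) and *aha1*, whose product speeds the Hsp90 ATPase (0.83), stayed just under 2-fold. The lowest of the list were *cdc37* (0.27) and *cns1* (-0.19).

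Most genes for cytosolic J-domain proteins stayed within 2-fold, as did 92.3% of all genes. Of 17 such genes, 1 was higher and 1, *mas5* itself, was lower, beside 3.57% and 4.09% of all genes. Their median was -0.05 (0.05 among genes alone in their locus). The higher gene was *psi1*, of the other major class of cytosolic Hsp40, with 487 FPKM in *mas5Δ* cells and 76.4 FPKM in the wild type (2.67). The zuotin gene *zuo1*, whose product works with the ribosomal Hsp70, had 305 FPKM in *mas5Δ* cells and 584 FPKM in the wild type (-0.94). In mitochondria, *hsp78*, which encodes the organelle's disaggregase, was the only gene of 7 past 2-fold, beside 3.57% of all genes higher. It had 466 FPKM in *mas5Δ* and 86.6 FPKM in the wild type (2.43). The mitochondrial Hsp70 gene *ssc1* had 0.48 and *mcp60*, the chaperonin, 0.44.

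The listed genes of 4 other branches of protein quality control stayed within 2-fold in these libraries, as did 92.3% of all genes. The lists are partial. Outside them, SPBC14F5.10c, annotated as a ubiquitin-protein ligase, had 62.4 FPKM in *mas5Δ* cells and 24.0 FPKM in the wild type (1.38). The gene *ear1*, for a specificity factor of ubiquitination, had a log2 ratio of 1.14. None of the 8 genes of the CCT chaperonin was called, and their log2 ratios lay between -0.40 and -0.05. None of 14 ER folding genes was called, the highest being *bip1*, the ER Hsp70, with 1259 FPKM in *mas5Δ* cells and 716 FPKM in the wild type (0.81), and *cnx1*, which encodes calnexin (0.73). None of 21 listed ubiquitin genes passed 2-fold, with *ufd1* at 0.67 and *uep1*, a fusion of ubiquitin with a ribosomal protein, at -0.88. None of 43 proteasome genes did either, and their median was 0.08, between *fub1* at 0.80 and *cut8* at -0.84.

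Promoters of the higher genes were searched for heat shock elements with 3 alternating units, that is GAANNTTC followed after 2 bases by a further GAA, on either strand, in the 500 bases before each gene start of the RefSeq annotation (assembly ASM294v3). The element occurred before 3 of 128 higher protein-coding genes (2.34%), 1 of 159 lower genes (0.629%) and 45 of 5113 genes in all (0.880%). The 3 were *ssa1*, *ssa2* and SPBC1271.08c, an uncharacterised gene with a log2 ratio of 2.17, and the lower one was the transporter gene *bfr1* (-1.08). The shorter GAANNTTC alone was found before 18.0% of higher genes, 18.2% of lower genes and 18.6% of all genes. By size of the ratio, it was found before 5 of 14 genes more than 8-fold higher (35.7%), 7 of 25 genes 4-fold to 8-fold higher (28%) and 11 of 89 genes 2-fold to 4-fold higher (12.4%). The stretches below show the element in the Hsp70 pair and SPBC1271.08c, and in *wis2*, which stayed under 2-fold, on the strand of each gene, with the units and the bases between them in capitals. They lie at chrI:2298000-2298032 (minus strand, *ssa1*), chrIII:2056974-2057006 (plus strand, *ssa2*), chrII:356293-356325 (plus strand, SPBC1271.08c) and chrI:4931216-4931248 (minus strand, *wis2*).
ssa1: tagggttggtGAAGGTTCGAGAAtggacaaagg
ssa2: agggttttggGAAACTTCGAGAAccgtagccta
SPBC1271.08c: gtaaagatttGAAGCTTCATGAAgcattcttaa
wis2: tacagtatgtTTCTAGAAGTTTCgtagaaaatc
The elements of *ssa1* and *ssa2* sit 45 and 46 bases before the annotated gene start, and that of *wis2* 62 bases before it. A match is a run of letters only, and neither its presence nor its absence says whether the factor binds.

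Trehalose and glycerol, the compatible solutes of stressed yeast, were a second group that moved upward. Of 8 genes 6 rose, none fell, and the median was 1.23. The trehalose synthesis gene *tps1* had 341 FPKM in *mas5Δ* cells and 139 FPKM in the wild type (1.29), and the related *tps3* had 198 FPKM in *mas5Δ* and 59.7 FPKM in the wild type (1.73). The trehalase gene *ntp1*, which acts in the opposite direction, rose as well (97.1 FPKM in *mas5Δ*, 46.3 FPKM in the wild type, 1.07). For glycerol, *gpd1*, the stress-inducible glycerol-3-phosphate dehydrogenase, had 1228 FPKM in *mas5Δ* cells and 486 FPKM in the wild type (1.34), while its sister *gpd2* had 270 and 312 FPKM in the same order (-0.21). The dihydroxyacetone kinase genes *dak1* (1.36) and *dak2* (1.17) completed the group.

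Of 19 genes for defence against peroxide and for thioredoxin, 4 rose, beside 3.57% of all genes, and none fell, with a median of 0.24. The catalase gene *ctt1* had 173 FPKM in *mas5Δ* cells and 30.7 FPKM in the wild type (2.50). Sulfiredoxin *srx1* (1.34), glutathione peroxidase *gpx1* (1.33) and glutathione transferase *gst3* (1.28) followed, whereas superoxide dismutase *sod1* had 658 FPKM in *mas5Δ* cells and 926 FPKM in the wild type (-0.49). Among 26 genes of the stress kinase pathway and of stress transcription factors, 3 rose, beside 3.57% of all genes, and none fell. These were *pyp2*, *pcr1*, which encodes the partner of Atf1 (127 FPKM in *mas5Δ*, 55.5 FPKM in the wild type, 1.19), and *vip1* (1.05). Atf1 itself had a log2 ratio of 0.40 and the transcription factor gene *hsr1* had -0.95.

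The full CRE, TGACGTCA, was found in the same window before 4 of 128 higher genes (3.12%), 0 of 159 lower genes and 19 of 5113 genes in all (0.372%). The 4 genes were *wwm3*, *rsv2*, *smp4* and *isp6*, and the element is printed for each in capitals because these matches were the only ones among the called protein-coding genes. All 4 lie on the plus strand, at chrII:201862-201889 (*wwm3*), chrII:3532871-3532898 (*rsv2*), chrIII:955149-955176 (*smp4*) and chrI:2544499-2544526 (*isp6*).
wwm3: aaacgagcgcTGACGTCAatggctgatc
rsv2: atcagacgctTGACGTCAttctttatat
smp4: catcatatgtTGACGTCAtttacggtat
isp6: attagaggggTGACGTCAagtgaacata
The zinc finger factor gene *rsv2* had 62.1 FPKM in *mas5Δ* cells and 9.03 FPKM in the wild type (2.78). The gene *smp4* had 177 FPKM in *mas5Δ* and 40.8 FPKM in the wild type (2.12), and the vacuolar protease gene *isp6* had 173 and 64.5 FPKM in the same order (1.43).

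Genes of the ribosome lay below the wild type as a body. All 139 genes for cytosolic ribosomal proteins that passed the limit had a log2 ratio below 0, from -1.60 to -0.39, with a median of -0.87. Of these, 24 fell by more than 2-fold and none rose. The extremes were *rpl1603* (20.6 FPKM in *mas5Δ*, 62.7 FPKM in the wild type, -1.60) and *rps3001* (1227 FPKM in *mas5Δ*, 1612 FPKM in the wild type, -0.39). In sum these genes held 244645 FPKM in *mas5Δ* cells and 440015 FPKM in the wild type, which is 27.6% and 40.7% of all FPKM in the 2 libraries. Paralogous copies of these genes are nearly identical in sequence, so the split between copies is uncertain, and the sum is not affected by it. Because FPKM is relative, a smaller ribosomal share and a larger share of other transcripts cannot be told apart in these values.

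Ribosomal genes made up most of the lower genes at the very highest levels only. Among the 214 genes averaging 1000 FPKM or more, 26 fell and 7 rose, and their median was -0.78. The 125 ribosomal protein genes in this class had a median of -0.86, with 21 lower, and the 89 others had a median of -0.06, with 7 higher and 5 lower. From 300 FPKM upward, 23 of 138 ribosomal protein genes (median -0.87) and 25 of 361 others (median -0.13) fell. In the class between 30 and 100 FPKM, 58 of 2274 genes rose and 57 fell, with a median of 0.03.

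Factors that build and run the ribosome lay on the same side of 0. Of 102 listed genes for ribosome biogenesis and RNA polymerase I, 15 fell and none rose, beside 4.09% and 3.57% of all genes. In this list 100 were below 0 and the median was -0.78. The list is partial, and the lower genes annotated to this function outnumber the 15. In or out of the list, they include the helicase genes *dbp3* (-1.33) and *has1* (-1.20), and *imp4* (-1.23), for a U3 snoRNP protein. The RNA polymerase I subunit gene *rpa49* had 36.2 FPKM in *mas5Δ* cells and 106.5 FPKM in the wild type (-1.55), and *rrp15*, for a factor of the large subunit, had 29.0 FPKM in *mas5Δ* and 78.5 FPKM in the wild type (-1.44). The 2 genes above 0 were *shq1* (0.05) and SPBC4.02c (0.12). Of 56 genes for translation factors only *tif51*, which encodes eIF5A, fell (1170 FPKM in *mas5Δ*, 2391 FPKM in the wild type, -1.03), beside 4.09% of all genes. The median of these 56 was -0.40.

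The HomolD box, CAGTCACA or its complement TGTGACTG, stands before many ribosomal protein genes of fission yeast. It was found in the 500 bases before 89 of 139 ribosomal protein genes (64.0%), 19 of 159 lower genes (11.9%), 0 of 128 higher genes and 153 of 5113 genes in all (2.99%). Ribosome biogenesis genes, which lay at much the same median, had it in 4 of 102 promoters (3.92%). Ribosomal protein genes with the box (89 genes, 15 lower) had a median log2 ratio of -0.87 and those without it (50 genes, 9 lower) one of -0.85. The 62 other genes with a box had a median of -0.31, and 4 of them fell. The stretches below show the box in capitals for the ribosomal protein genes among the called ones with the lowest ratios that carry it. They lie at chrI:3869005-3869032 for both *rpp203* (plus strand) and *rps1502* (minus strand), at chrI:3399184-3399211 (plus strand, *rps403*) and at chrI:3430804-3430831 (minus strand, *rpl702*).
rpp203: cttgaaacgtTGTGACTGtctttttcgt
rps1502: acgaaaaagaCAGTCACAacgtttcaag
rps403: acgaaaaaggCAGTCACAattatttgct
rpl702: gttgtaaagaCAGTCACAagatgtaaac
The divergent neighbours *rpp203* and *rps1502* share 1 box, 66 and 36 bases before their gene starts, and had log2 ratios of -1.26 and -1.13. The small subunit gene *rps403* had 824 FPKM in *mas5Δ* cells and 1781 FPKM in the wild type (-1.11), and *rpl702* had 720 FPKM in *mas5Δ* and 1521 FPKM in the wild type (-1.08).

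**Figure D3:**
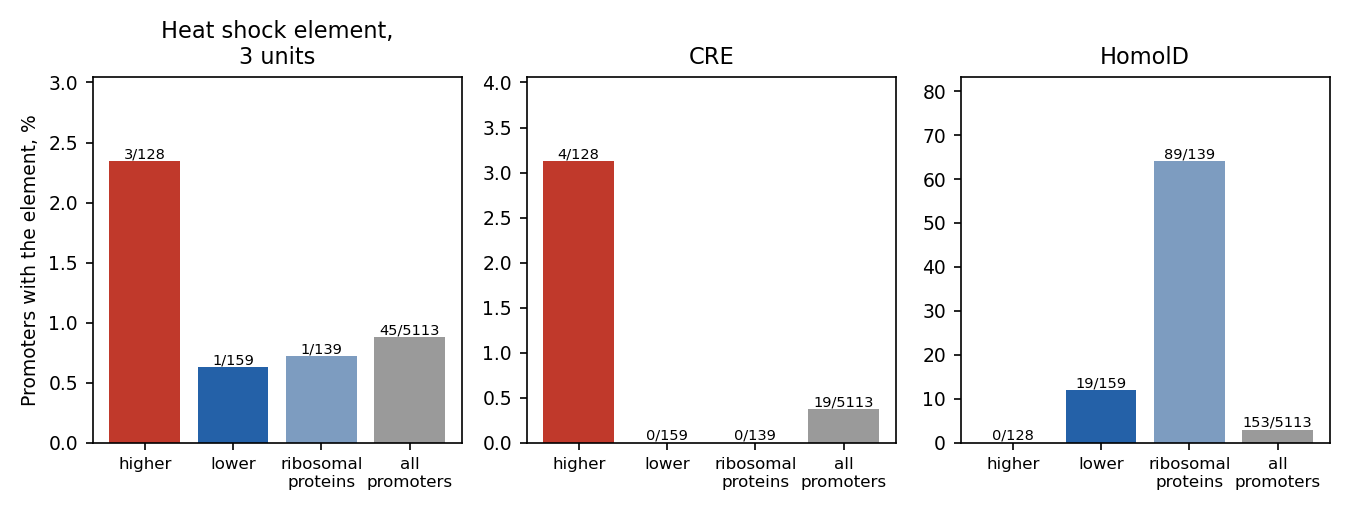
Share of promoters (percent of genes, vertical axes starting at 0) that hold the 3-unit heat shock element, the CRE and the HomolD box in the 500 bases before the gene start, for higher genes, lower genes, ribosomal protein genes and all genes; fractions above the bars give the counts. The CRE stands before 3.12% of higher genes and 0.372% of all genes, and HomolD before 64.0% of ribosomal protein genes.

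**Figure D4:**
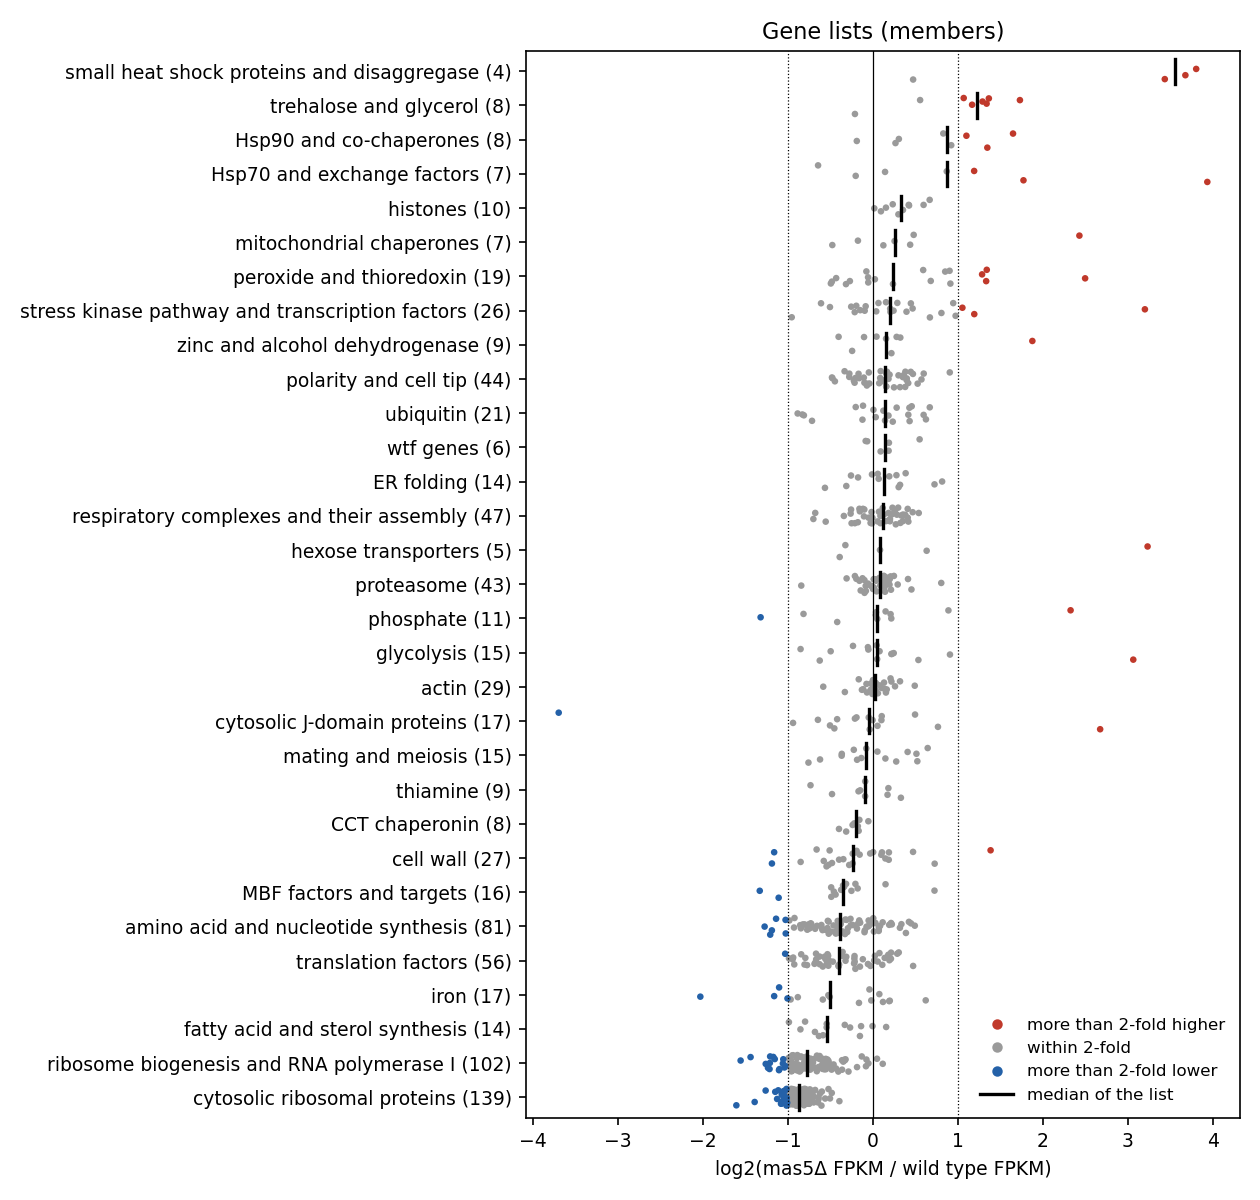
Log2 ratio of *mas5Δ* over wild type FPKM (horizontal axis) for each member (points) of the gene lists, ordered by the list median (bars), with the number of members in brackets and dotted lines at 2-fold. Lists of small heat shock proteins, trehalose and glycerol, Hsp90 and Hsp70 lie at the top with medians of 3.55 to 0.87, and ribosomal protein genes lie at the bottom with -0.87.

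Synthesis of amino acids and nucleotides held a few lower genes. Of 81 genes 6 fell, beside 4.09% of all genes, and none rose, with a median of -0.39. In the reduction of sulfate, *met10* (22.9 FPKM in *mas5Δ*, 55.4 FPKM in the wild type, -1.27) and *met14* (339 FPKM in *mas5Δ*, 773 FPKM in the wild type, -1.19) were both called. In nucleotide synthesis *gua1*, the IMP dehydrogenase, had -1.02, and *ura3* (218 FPKM in *mas5Δ*, 504 FPKM in the wild type, -1.21) and *ura1* (61.2 and 134.7 FPKM in the same order, -1.14) belong to the uracil pathway. With *ura4* at 0 in the wild type and expressed in *mas5Δ* cells, the strains differ in their need for uracil, so these genes and the uracil permease gene *fur4* (-1.17) move with the marker as well as with the deletion, which cannot be told apart. The same holds for *urg1*, a gene known to be induced by uracil, which had 525 FPKM in *mas5Δ* cells and 188.6 FPKM in the wild type (1.48). In heat, where both libraries are wild type, the log2 ratios were -1.97 for *ura3*, -0.66 for *ura1* and -1.33 for *fur4*. The log2 ratio of *urg1* in heat was -1.84. The heat ratios share the unstressed library, and how much of each *mas5Δ* change follows the marker was not tested. Of 8 genes for synthesis and uptake of pyrimidines, a list drawn up after the values were seen, 1 rose and 3 fell in *mas5Δ* cells. The genes *leu1* (-0.39) and *ade6* (-0.33), markers of other auxotrophies, lay within 2-fold. None of 14 listed genes for fatty acid and sterol synthesis was called, beside 92.3% of all genes within 2-fold. Their median was -0.54, with *lcf2* at -0.99 and *cut6*, the acetyl-CoA carboxylase, at -0.85. The list is partial. Outside it, the C-4 methylsterol oxidase gene *erg25* was lower, with 389 FPKM in *mas5Δ* cells and 837 FPKM in the wild type (-1.10).

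Genes of metal and phosphate supply moved in both directions. Of 17 genes for iron uptake and use 4 fell and none rose, beside 4.09% and 3.57% of all genes, with a median of -0.51. Beside *frp1*, these were the siderophore transporter genes *str1* (80.2 FPKM in *mas5Δ*, 179 FPKM in the wild type, -1.16) and *str3* (30.4 and 65.3 FPKM in the same order, -1.10), and *pcl1* (84.7 FPKM in *mas5Δ*, 170 FPKM in the wild type). Of 9 genes for zinc and alcohol dehydrogenase only the zinc-binding metallothionein gene *zym1* was called, beside 3.57% of all genes higher. It had 149 FPKM in *mas5Δ* cells and 40.6 FPKM in the wild type (1.88). Of 11 phosphate genes 1 rose and 1 fell, beside 3.57% and 4.09% of all genes. The secreted acid phosphatase gene *pho1* had 643.7 FPKM in *mas5Δ* cells and 128.5 FPKM in the wild type (2.33), and the phosphate transporter gene *pho84* had 510 and 275 FPKM in the same order (0.89). The glycerophosphodiester transporter gene *tgp1* had 6.56 FPKM in *mas5Δ* and 16.4 FPKM in the wild type (-1.32). Of 15 glycolysis genes only *gpd3*, a glyceraldehyde-3-phosphate dehydrogenase, was called, beside 3.57% of all genes higher. It had 617 FPKM in *mas5Δ* cells and 73.9 FPKM in the wild type (3.06). Of 5 hexose transporter genes *ght5* alone was called, beside the same 3.57%, and *ght8* had 297 FPKM in *mas5Δ* and 389 FPKM in the wild type (-0.39). None of 47 genes for respiratory complexes was called, and their median was 0.12.

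Some called genes did not follow heat stress. The ratio of heat-stressed to unstressed wild type uses the same unstressed library as the *mas5Δ* ratio, from a separately scaled table, and the *ssa2Δ* ratio uses it too, so the 3 ratios are given side by side only. Of 129 protein-coding genes that rose in *mas5Δ* cells, 9 had a heat ratio of 0 or below, and of 158 that fell and had a heat ratio, 10 had one of 0 or above. Over the 5175 genes compared that had a heat ratio, the median log2 heat ratio was -0.04. Any error in the shared wild type library enters both ratios in the same direction, so these counts are not independent of it. The hexose transporter gene *ght5* had log2 ratios of 3.23 in *mas5Δ* cells, 0.42 in *ssa2Δ* cells and -1.55 after the heat shift. The acid phosphatase gene *pho1* had 2.33 in *mas5Δ*, -1.32 in *ssa2Δ* and -1.46 in heat. The transcription factor gene SPAC2H10.01 (95.2 FPKM in *mas5Δ*, 15.6 FPKM in the wild type) was higher in both chaperone mutants, with 2.61 in *mas5Δ* and 1.98 in *ssa2Δ*, against -0.95 in heat. SPCC417.15 was on opposite sides as well, with 1.74 in *mas5Δ*, 0.96 in *ssa2Δ* and -2.59 in heat. The other named genes were *urg1* (1.48 in *mas5Δ*, -1.84 in heat), *dak2* (1.17 and -1.41), *alr2*, for an alanine racemase (1.15 and -2.24), and SPAC977.15 (1.94 and -0.96).

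Genes that fell in *mas5Δ* cells without a fall in heat came from several functions. The branched-chain aminotransferase gene *eca39* had 813.5 FPKM in *mas5Δ* cells and 1950 FPKM in the wild type, a log2 ratio of -1.26, against -0.60 in *ssa2Δ* and 0.91 in heat. The multidrug transporter genes *bfr1* (-1.08 in *mas5Δ*, -1.03 in *ssa2Δ*, 0.38 in heat) and *mfs1* (-1.22, -1.05 and 0.10 in the same order) lay on the lower side in both mutants. The genes *abp2*, for a protein that binds replication origins (-1.56 in *mas5Δ*), *ofd2*, for an oxygenase (-1.39), and *bit61*, for a partner of the TOR kinase (-1.14), had heat ratios of 0.35, 0.21 and 0.24, and *gem8*, at -4.73 in *mas5Δ* cells, had 0.20. The *mas5* transcript itself had a ratio of 0.96 in heat and 1.17 in *ssa2Δ* cells.

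**Figure D5:**
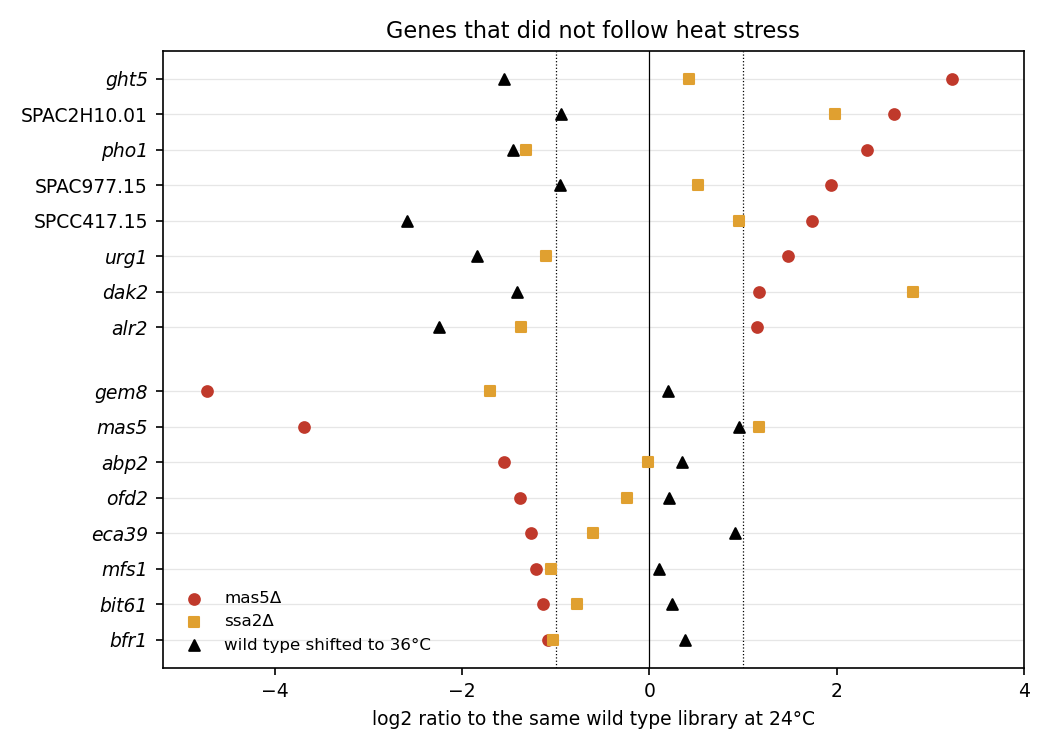
Log2 ratios to the wild type library at 24°C (horizontal axis) of *mas5Δ* (circles), *ssa2Δ* (squares) and heat-stressed wild type (triangles) for 8 genes that rose in *mas5Δ* with a heat ratio of 0 or below (top) and 8 that fell with a heat ratio of 0 or above (bottom); dotted lines mark 2-fold. The gene *ght5* has 3.23 in *mas5Δ* and -1.55 in heat, and *eca39* has -1.26 and 0.91.

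Overexpression of Hsf1 was measured against another wild type library, in minimal medium, so its ratios share no library with those of *mas5Δ*. The deposited table does not name the sample of each value column, and the columns were taken to stand in the order of the other tables. The *hsf1* transcript itself had a log2 ratio of 3.30 in this order. The marker gene *ura4* had one of 8.76, so this comparison differs in *ura4* as the *mas5Δ* comparison does. Genes shared by the 2 comparisons may follow the marker, which cannot be told apart here. A ratio could be taken for 5153 genes, of which 20.9% were higher past 2-fold on Hsf1 overexpression and 17.0% lower. Of the 181 genes that rose in *mas5Δ* and had a ratio, 69 were also higher on Hsf1 overexpression, which is 38.1% of the *mas5Δ* list and 6.41% of the Hsf1 list, and 35 (19.3% and 4.00%) were lower there. Of the 202 that fell in *mas5Δ*, 95 were also lower (47.0% of the *mas5Δ* list and 10.9% of the Hsf1 list), and 24 (11.9% and 2.23%) were higher. Some chaperone genes were higher in both, with *hsp16* at 3.80 in *mas5Δ* and 6.23 on Hsf1 overexpression, *ssa1* at 3.93 and 3.31, *fes1* at 1.77 and 1.25, and *hsp78* at 2.43 and 1.21. Others that rose in *mas5Δ* stayed within 2-fold on Hsf1 overexpression, namely *hsp104* (3.43 in *mas5Δ* and 0.43), *wos2* (1.65 and 0.72), *hsp90* (1.35 and 0.18), *ssa2* (1.19 and 0.83) and *sti1* (1.10 and 0.29). Genes that went the other way on Hsf1 overexpression were *pho1* (2.33 in *mas5Δ*, -4.77), *wwm3* (4.46 in *mas5Δ*, -2.82) and *ght5* (3.23 in *mas5Δ*, -1.95).

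Some stress transcripts stood higher in wild type cells of minimal medium than in wild type cells of rich medium, with values from separately scaled tables. In minimal medium *ssa1* had 232 FPKM, *hsp104* 208 FPKM, *hsp16* 165 FPKM and *hsp9* 5135 FPKM. These values lie between those of the *mas5Δ* and wild type libraries in rich medium, and *wwm3* (343 FPKM) and *pho1* (1609 FPKM) lie above both. How much the levels of these genes vary between wild type cultures of 1 medium was not tested.

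Transcripts of the polarity machinery stayed within 2-fold, as did 92.3% of all genes. None of 44 genes for polarity and the cell tip was called, with a median of 0.15 (-0.04 among genes alone in their locus). The GTPase gene *cdc42*, the master of cell polarity, had 404 FPKM in *mas5Δ* cells and 490 FPKM in the wild type (-0.28). Its exchange factor genes *scd1* and *gef1* had 0.42 and 0.40, and *for3*, the formin of actin cables, had 19.6 FPKM in *mas5Δ* and 13.2 FPKM in the wild type (0.57). The genes of the tip landmarks lay below 0, with *tea1* at 16.9 FPKM in *mas5Δ* and 23.5 FPKM in the wild type (-0.47), *pom1* at -0.45 and *tea4* at -0.17. The list reached from *shk2* at 0.90 to *rho4* at -0.48. None of 29 actin genes was called either, from *vrp1* at 0.49 to *cdc15* at -0.58. Of 27 cell wall genes 1 rose and 2 fell, beside 3.57% and 4.09% of all genes. The glucanosyltransferase gene *gas2* had 1516 FPKM in *mas5Δ* cells and 580 FPKM in the wild type (1.38). The septum-cleaving glucanase gene *eng1* had 64.3 FPKM in *mas5Δ* and 146 FPKM in the wild type (-1.19), and *adg1* had 141 and 315 FPKM in the same order (-1.16).

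The largest ratio of the whole comparison in each direction belonged to a non-coding RNA. SPNCRNA.231 had 242 FPKM in *mas5Δ* cells and 1.25 FPKM in the wild type (log2 ratio 7.60), SPNCRNA.232 had 231 FPKM in *mas5Δ* and 1.21 FPKM in the wild type (7.58), and SPNCRNA.362 had 171 FPKM in *mas5Δ* and 1.46 FPKM in the wild type (6.88). They map to chrI:3761023-3762114, chrI:3762865-3763969 and chrII:1611106-1612940, in the repeats around the centromeres, which are normally kept silent as heterochromatin by RNA interference. Each has near-identical copies in the genome (at least 95% identity over at least 80% of the transcript), which number, with the transcript's own locus counted, 6 for SPNCRNA.231, 9 for SPNCRNA.232 and 5 for SPNCRNA.362, spread over the 3 chromosomes. Reads of the copies cannot be told apart, so the values do not show which repeat was transcribed. In *ssa2Δ* cells the log2 ratios were 0.39 for SPNCRNA.231, 0.86 for SPNCRNA.232 and 0.87 for SPNCRNA.362, and in heat they were -1.69, 0.99 and 1.20.

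SPNCRNA.1299, the fourth highest of the non-coding RNAs, had 164 FPKM in *mas5Δ* cells and 12.0 FPKM in the wild type (3.78), against -2.36 in *ssa2Δ* and -1.72 in heat. It has 3 copies with its own locus counted, all on chromosome III. At the other end stood SPNCRNA.481 (0.0797 FPKM in *mas5Δ*, 23.6 FPKM in the wild type, -8.21), a transcript of 89 bases whose ratio was -4.51 with 1 FPKM added. Among the non-coding RNAs it was followed by SPNCRNA.1602 (3.09 FPKM in *mas5Δ*, 46.2 FPKM in the wild type, -3.90), SPNCRNA.779 (-3.34) and SPNCRNA.1306 (-3.05). Of 517 transcripts with SPNCRNA identifiers that passed the limit, 48 rose and 43 fell, beside 3.57% and 4.09% of all genes, with a median of 0.06. Only 65 of the 517 stand alone in their locus. The libraries were made from poly(A)-selected RNA, and 3477 of the 5186 genes share a locus in the table with another gene, so a value in such a locus may hold reads of its neighbour.

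The remaining lists cover histones, the cell cycle, thiamine, mating and meiosis. All 10 histone genes that passed the limit lay between 0.02 and 0.67 and none was called. Of 16 genes of the MBF cell cycle factor and its targets, 2 fell, *dut1* (-1.33) and *mik1* (-1.11), beside 4.09% of all genes. None of 9 thiamine genes, none of 6 *wtf* genes and none of 15 listed genes for mating and meiosis was called, beside 92.3% of all genes within 2-fold. The mating and meiosis list is partial. Outside it, the karyogamy gene *tht2* (-1.67) and the meiotic septin gene *spn7* (1.00) were called. Of the 79 *mug* and *meu* genes, a class first named for expression in meiosis, 9 rose, beside 3.57% of all genes, and none fell. The list was led by *mug143* and *mug108*. None of the 13 listed retrotransposon genes passed the limit of 10 FPKM. The 12 genes covered by the study's quantitative PCR primers include *act1* and, under 1 primer pair, the glyceraldehyde-3-phosphate dehydrogenase genes *gpd3* and *tdh1*. Of the 12, 4 rose, *gpd3* among them, and 2 fell, and the list is no independent evidence of its direction.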

How the data were processed

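RNA of 1 sample per condition was poly(A)-selected with oligo-dT beads and sequenced as single-end reads. The authors aligned the reads with TopHat and estimated FPKM per gene with Cuffdiff, after quality checks with FastQC, and the deposited tables give the 2 FPKM values of each pair. Tools are from the submitters' processing notes; their versions and genome build are not given in the sources used here. Each of the 4 tables was scaled separately. Column order follows the study's own listing of the changes against the unstressed wild type, and for *nmt1:hsf1* it was taken to be the same. The tables also hold the authors' log2 ratios, p-values, q-values and significance calls, which were not used. Strand of counting is not stated, so genes that overlap cannot be told apart.

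From the FPKM values log2(*mas5Δ*/wild type) was computed without pseudocount where the values averaged 10 FPKM or more and neither was 0, and genes past 2-fold were called. With 1 library per strain no test was run; precision is unknown. Summed FPKM were 886357 in *mas5Δ* and 1081090 in the wild type. Identifiers were matched to RefSeq (ASM294v3; 6843 of 7008). On this assembly, 64.7% of 2253 genes alone in their locus started at the same base as in the tables and 99.7% within 1000 bases. Promoters were the 500 bases before the RefSeq gene start. Repeat copies were found with blastn 2.17.0. Other steps used Python 3.11.15, pandas 2.3.3, numpy 2.4.6 and matplotlib 3.10.9. Whether the calls would recur in other cultures was not tested.

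Genes named are the deleted gene, the marker and genes the study names; the 12 highest and 12 lowest protein-coding genes, of which 1 is not reported here; the 4 highest and 4 lowest non-coding RNAs; 8 genes per direction that did not follow heat; and list members at each end or called. The 36 gene lists and the members were chosen with earlier results of these data known. The uracil list, the promoter examples and the remaining genes named were chosen after their values were seen. Alternatives were a pseudocount, centring, other minimum levels and folds, genes alone in their locus, coding genes only, the wild type values of the other tables, and other promoter elements.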

Additional observations from a re-analysis of the deposited data

How the results depend on the processing

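No paired analysis was possible because each strain has 1 library. The count of higher genes was 185, and moved to 426 with a minimum mean of 1 FPKM, 469 with no minimum, 120 at 30 FPKM, 60 among genes alone in their locus, 491 at 1.5-fold and 79 at 3-fold. The count of lower genes was 212, and moved to 333 with no minimum, 71 among genes alone in their locus, 729 at 1.5-fold and 43 at 3-fold. These settings change the number of genes compared or the fold asked for. With a pseudocount of 1 FPKM, with centring and without non-coding RNAs, both counts stayed within 1.5 times. They were 171 and 197, 177 and 229, and 132 and 160 in this order. The wild type values of the heat and *ssa2Δ* tables come from the same unstressed library under another scaling. After rescaling, 5185 of 5186 genes agreed within 0.01 in log2. The counts of 185 and 212 with either table therefore had to recur and are no independent check. The share of higher genes with a heat shock element was 2.34%, and 18.0% with 2 units in place of 3; a 250-base window, added after seeing the data, gave 1.56%. All 425 values of named genes under the alternatives stayed on their side of 2-fold. The level and locus settings leave the ratio of a gene as it is, and the other tables barely alter it. Most of these values therefore could not have moved, and only the pseudocount and centring, with 59 genes each, could shift a ratio. Of the gene list counts 514 stayed within 1.5 times and 46 moved, among them ribosomal protein genes, of which 8 and not 24 were lower when genes had to stand alone in their locus; 257 list medians stayed within 0.1 and 23 moved. Of these, 10 medians in 8 lists changed sign, given as the value reported and then the alternative. Among genes alone in their locus these were J-domain proteins (-0.05 to 0.05), hexose transporters (0.08 to -0.32), zinc (0.16 to -0.10), thiamine (-0.09 to 0.04), polarity (0.15 to -0.04) and the quantitative PCR genes (0.40 to -0.01). With a minimum of 30 FPKM they were hexose transporters (-0.32) and *wtf* genes (0.14 to -0.07), and with 1 FPKM or no minimum mating and meiosis (-0.08 to 0.06). With 1 library per strain and unknown depth, variation between cultures could not be seen.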

Other observations

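A few further sets of neighbouring or functionally related genes were called, chosen after their values were seen. The galactose genes, which lie together near a chromosome end and encode the enzymes that turn galactose into glucose phosphate, were all higher. *gal10* had 20.7 FPKM in *mas5Δ* cells and 2.63 FPKM in the wild type (log2 ratio 2.98), *gal7* had 71.4 FPKM in *mas5Δ* and 16.1 FPKM in the wild type (2.15), and *gal1* had 32.6 and 12.4 FPKM in the same order (1.40). Within 100000 bases of the listed ends of chromosomes I and II lay 48 genes, of which 10 rose and 11 fell, beside 3.57% and 4.09% of all genes. The eisosome genes *pil1* (1.29) and *fhn1* (1.82), whose products form furrows of the plasma membrane, were higher.

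Among lower genes, *egd2* (865 FPKM in *mas5Δ*, 1982 FPKM in the wild type, -1.20) and *btf3* (1411 FPKM in *mas5Δ*, 2998 FPKM in the wild type, -1.09) encode the subunits of the nascent polypeptide-associated complex, which meets new chains at the ribosome. The purine salvage gene *dea2* (51.7 FPKM in *mas5Δ*, 169 FPKM in the wild type, -1.70) was lower beside *apt1*, and the ATP sulfurylase gene *sua1* (502 FPKM in *mas5Δ*, 1048 FPKM in the wild type, -1.06) beside *met14* and *met10*. Of snoRNAs, *snoR38* had 1637 FPKM in *mas5Δ* cells and 359.9 FPKM in the wild type (2.19), whereas *snR36* had 42.9 FPKM in *mas5Δ* and 276.2 FPKM in the wild type (-2.69). These RNAs have no poly(A) tail in their mature form, and the libraries were poly(A)-selected.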
